A study of Homo sapiens with 3 samples.

Results

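The 8 genes described here serve the red cell: the growth genes RHEX and EPOR, the iron importer gene TFRC, the transcription factor gene KLF1, the haem enzyme gene ALAS2 and the membrane genes EPB42, ANK1 and SLC4A1. They were taken by name, 8 of 19974 protein-coding genes that lie on chromosome X or an autosome. A peak was counted for a gene when it overlapped the RefSeq gene record or the 5 kb either side of it by at least 1 bp. A super-enhancer was counted when the authors assigned it to the gene or when it overlapped that window. The data are 1 H3K27ac library, 1 H3K4me3 library and 1 input library without antibody. All come from KBM7, an established human cell line of chronic myeloid leukaemia that is largely haploid, grown in serum-containing medium with no treatment named. With 1 library per mark there is no replicate error and no condition to compare, so every value below describes these libraries and no test was made.

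Red cell precursors grow under erythropoietin, a hormone whose receptor EPOR signals through the kinase JAK2 and the factor STAT5. RHEX is a human protein that works with EPOR to expand erythroblasts. Iron enters through the transferrin receptor TFRC and is built into haem, the pathway that ALAS2 opens in erythroid cells and its sister enzyme ALAS1 opens elsewhere. KLF1 switches on globin and membrane genes late in the lineage. The mature membrane is held to its spectrin skeleton by ankyrin (ANK1) and protein 4.2 (EPB42), which join it to band 3, the anion exchanger encoded by SLC4A1. The histone mark H3K27ac sits on active promoters as well as enhancers, and H3K4me3 mainly on promoters.

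RHEX and TFRC carried both marks at the start, and EPOR had its own highest folds inside the gene. The haem gene ALAS2 and the membrane genes EPB42 and SLC4A1 had strongest H3K27ac folds under 8 and no H3K4me3. The membrane gene ANK1 had both marks, with strongest folds of 23.5 and 46.1. The authors give each peak a fold enrichment at its summit, and the number of fragments behind it was recovered from the fold and the p-value. The strongest H3K27ac fold in the window was 33.4 at EPOR, 30.4 at RHEX, 24.6 at TFRC, 23.5 at ANK1, 22.4 at KLF1, 7.78 at SLC4A1, 7.35 at EPB42 and 4.74 at ALAS2. By 95% Poisson intervals of the fragments, which cover counting error only, neighbours in that order overlapped except KLF1 (18.9 to 26.3) and SLC4A1 (5.49 to 10.7). By this window value the genes fell into a high set of 5 and a low set of 3. KLF1 was in the high set only through a peak at the start of its neighbour DNASE2. The H3K27ac peak nearest to the KLF1 start had a fold of 5.53 (3.48 to 8.39), an interval that overlaps that of SLC4A1. For H3K4me3 the order was KLF1 with 68.8, TFRC with 53.7, EPOR with 48.4, ANK1 with 46.1 and RHEX with 36.3, and the remaining 3 had no peak. The intervals of KLF1 (61.2 to 77.2) and TFRC (47.7 to 60.3) did not overlap, and the other neighbours did. At KLF1, and for H3K27ac at EPOR, the strongest peak belonged to the start of a neighbouring gene, as described below.

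**Figure D1:**
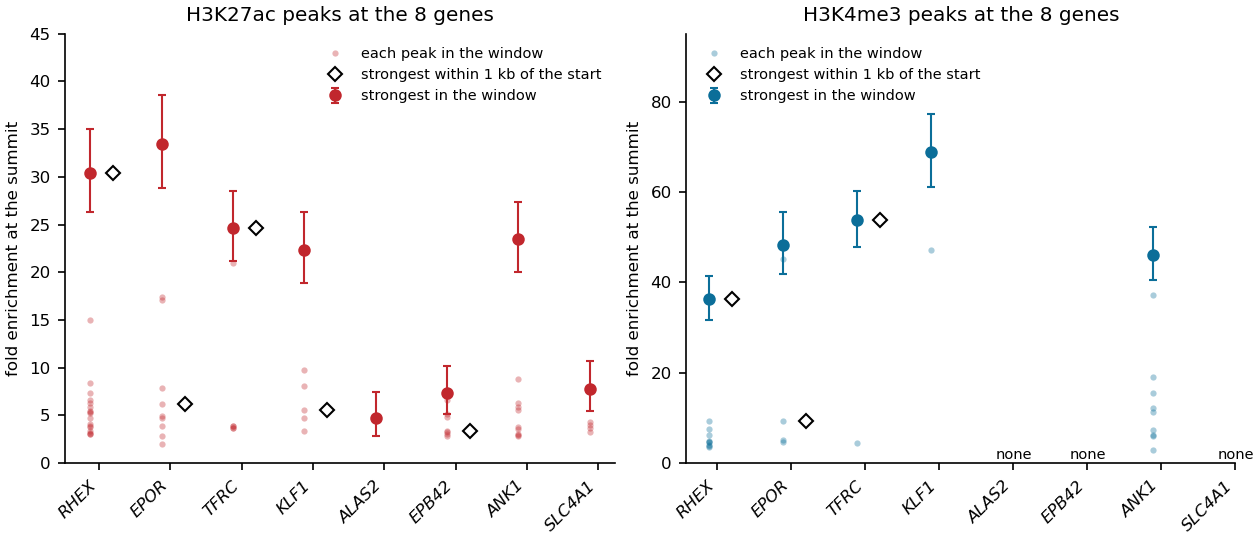
Fold enrichment at the summit (linear axes from 0) of H3K27ac peaks, left, and H3K4me3 peaks, right, in the window of each gene. Large points with 95% Poisson intervals are the strongest peak, pale points the others, and open diamonds the strongest within 1 kb of the start, where the reference gives one. KLF1 has an H3K4me3 fold of 68.8 in its window and none within 1 kb of its start, and ALAS2, EPB42 and SLC4A1 have no H3K4me3 peak.

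All 8 genes had H3K27ac in the window, where 72.7% of protein-coding genes had it. H3K4me3, and with it both marks together, was present at 5 of 8 (62.5%, exact binomial interval 24.5 to 91.5), where 76.4% of protein-coding genes had H3K4me3 and 70.1% had both. With 8 genes chosen by name this count was not tested against other genes, and its interval is wide. KLF1 counts among the 5 only through H3K4me3 peaks at the starts of DNASE2 and GCDH. With 0 or 1 kb either side in place of 5 kb the count was 4. An H3K27ac peak in the top 50% of its list by fold was present at all 8 genes, where 69.7% of protein-coding genes had one, and such an H3K4me3 peak at 5, where 71.4% had one. The windows held 64 H3K27ac peaks, of which 36 were in the top 50% of the list by fold and 17 overlapped H3K4me3. They held 29 H3K4me3 peaks, of which 12 were in the top 50% and 24 overlapped H3K27ac. The median of the strongest fold was 22.9 for H3K27ac over the 8 genes, against 23.6 over all protein-coding genes with the mark. For H3K4me3 it was 48.4 over the 5 genes with the mark, against 63.4.

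Near the transcription start the picture was narrower. The reference gives a start for 6 of the genes, namely RHEX, EPOR, TFRC, KLF1, ALAS2 and EPB42, and none for ANK1 and SLC4A1. Within 1 kb of the start 5 of these 6 had H3K27ac, where 63.3% of protein-coding starts had it. Only RHEX, EPOR and TFRC had H3K4me3 there and so both marks, 3 of 6, where 67.5% had H3K4me3 and 61.4% both. RHEX and TFRC had H3K27ac folds of 30.4 and 24.6 at the start, higher than 74.6% and 54.8% of the 10014 protein-coding starts with the mark. EPOR with 6.20, KLF1 with 5.53 and EPB42 with 3.42 were higher than only 6.23%, 5.17% and 0.799% of them. For H3K4me3 even TFRC (53.7) was higher than only 31.2% of 10677 marked starts, RHEX (36.3) than 12.3% and EPOR (9.24) than 3.23%.

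The 250 bases before the start are shown for 5 genes, to set 2 starts with higher folds of both marks (RHEX, TFRC) beside 1 with lower folds (EPOR) and 2 without H3K4me3 (KLF1, ALAS2). They are RefSeq sequence of GRCh38.p14, read 5′ to 3′ on the strand of the gene. Capitals mark a GATA motif, the letters bound by GATA1 and GATA2 (AGATAA as well as AGATAG, and likewise TGATAA as well as TGATAG, on either strand), or a TATA box (TATAAA on either strand). RHEX lies at chr1:206083345-206083594 on the plus strand, and the others are on the minus strand: TFRC at chr3:196082091-196082340, EPOR at chr19:11384315-11384564, KLF1 at chr19:12887202-12887451 and ALAS2 at chrX:55030978-55031227.
RHEX: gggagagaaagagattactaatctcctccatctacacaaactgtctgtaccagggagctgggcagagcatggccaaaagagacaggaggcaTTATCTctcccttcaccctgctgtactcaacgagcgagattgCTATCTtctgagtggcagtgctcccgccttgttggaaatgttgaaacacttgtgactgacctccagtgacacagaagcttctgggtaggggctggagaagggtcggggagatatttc
TFRC: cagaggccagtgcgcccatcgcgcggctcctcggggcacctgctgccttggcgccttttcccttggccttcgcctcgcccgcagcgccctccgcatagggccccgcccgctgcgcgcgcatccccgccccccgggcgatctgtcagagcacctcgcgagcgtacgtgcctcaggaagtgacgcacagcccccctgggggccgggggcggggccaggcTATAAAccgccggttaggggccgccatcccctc
EPOR: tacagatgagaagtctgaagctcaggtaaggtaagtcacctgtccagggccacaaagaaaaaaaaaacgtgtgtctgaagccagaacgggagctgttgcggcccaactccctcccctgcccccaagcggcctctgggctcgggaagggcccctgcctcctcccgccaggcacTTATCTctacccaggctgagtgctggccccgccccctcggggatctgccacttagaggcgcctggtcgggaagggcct
KLF1: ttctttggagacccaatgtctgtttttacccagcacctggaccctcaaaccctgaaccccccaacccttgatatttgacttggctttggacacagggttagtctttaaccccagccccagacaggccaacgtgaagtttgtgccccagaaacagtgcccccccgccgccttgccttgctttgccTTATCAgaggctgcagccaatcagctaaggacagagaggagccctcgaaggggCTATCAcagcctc
ALAS2: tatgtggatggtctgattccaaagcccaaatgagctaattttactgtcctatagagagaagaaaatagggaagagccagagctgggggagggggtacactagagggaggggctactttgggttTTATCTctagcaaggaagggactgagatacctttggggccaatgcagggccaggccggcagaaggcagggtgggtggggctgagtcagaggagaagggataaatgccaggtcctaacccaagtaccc

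A GATA motif was present before 5 of the 6 starts, and TFRC was the exception, where 17.6% of 15810 protein-coding starts had one in 250 bases. RHEX had the motif at bases 159 to 154 and 117 to 112 before the start, KLF1 at 66 to 61 and 13 to 8, EPOR at 78 to 73, ALAS2 at 127 to 122, and EPB42 at 208 to 203 and 61 to 56. Of these 5 starts, RHEX and EPOR had both marks within 1 kb, KLF1 and EPB42 had H3K27ac only, and ALAS2 had neither. TFRC alone had the TATA box, at 33 to 28 bases before the start, where 9.25% of starts had it. The CACC box, the kind of site KLF1 binds, was searched as CCNCNCCC on both strands, letters that also match GC boxes. It was present at EPOR, TFRC, ALAS2 and EPB42, and 64.4% of starts had it. An E-box, CANNTG, was present at 5 of 6 (57.8% of starts). The STAT5 motif TTCNNNGAA was at none of the 6 (6.14% of starts). A match is a description of these letters and not a bound site. The shares are over all protein-coding starts and were not matched for base composition.

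The starts also differed in base composition. TFRC had 29 CpG pairs in the 250 bases and 74.4% G and C, EPOR 10 and 62.0%, RHEX 4 and 51.2%, KLF1 4 and 55.2%, and ALAS2 and EPB42 1 each, with 52.8% and 54.0%. The median protein-coding start had 17 CpG pairs and 62.4% G and C. In the lowest quartile of starts by CpG (0 to 6) 18.8% had H3K4me3 within 1 kb and 21.6% had H3K27ac, and in the highest (26 to 59) 93.1% and 84.7%. RHEX, with 4 CpG pairs, was thus among the fewer low-CpG starts with H3K4me3, while KLF1 with as many was among the majority without it.

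RHEX (gene ID 440712, chromosome 1, 206053173 to 206102449, hg38) was the most acetylated of the genes by extent. H3K27ac peaks covered 82.4% of its window, more than in 99.95% of 6492 genes of 0.5 to 2 times its length, and H3K4me3 covered 23.04%, more than in 99.3%. The window held 18 H3K27ac peaks with folds from 3.03 to 30.4 and a median of 5.33, against a median of 4.47 over all H3K27ac peaks. One interval of 34095 bp (206072647 to 206106741) ran over the start and the rest of the gene, and its summit, with 195 fragments, lay 65 bp past the start (fold 30.4, interval 26.3 to 35.0). The strongest of 10 H3K4me3 peaks was 7617 bp wide, with its summit 709 bp past the start (fold 36.3, 31.6 to 41.4). The summits of the marks were 644 bp apart, against a median of 133 bp (interquartile range 26 to 578) over 20412 overlapping pairs from the top 50% of both lists. All 10 H3K4me3 peaks lay inside the 34095 bp interval, and the other 9 had folds of 3.59 to 9.32. The remaining H3K27ac peaks inside the gene lay 11.9 to 30.4 kb before the start, where its record begins upstream of the start used here, with folds of 3.03 to 7.37. The non-coding gene LOC105372857 overlaps that stretch.

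The super-enhancer assigned to RHEX covered the whole gene and reached 72.7 kb beyond its low end and 13.6 kb beyond its high end. It spanned 135.6 kb (chromosome 1, 205980466 to 206116040), against a median of 41.6 kb over all super-enhancers, and had rank 6 in the authors' table and rank 11 by length. The authors' H3K27ac signal over it was 10.2-fold the input signal, rank 143 by that ratio, against a median of 8.11. It contained 63 H3K27ac peaks over 71.7% of its length and 17 H3K4me3 peaks over 18.0%. The starts of RAB7B and CTSE also lie inside it, and the record of AVPR1B reaches into it. Its strongest H3K4me3 peak was not at RHEX. It was a 6700 bp interval (206034082 to 206040781) of fold 50.5 (44.2 to 57.5), 48.2 kb before the RHEX start and 11.5 kb from the nearest start in the reference, that of CTSE, with no gene record at its summit. It sat in a 13745 bp H3K27ac interval of fold 23.5. The other leading H3K27ac peaks of the region, with folds of 27.8 and 21.5, lay inside the CTSE record.

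TFRC (gene ID 7037, chromosome 3, 196049284 to 196082090) had a compact promoter and a separate super-enhancer. An H3K27ac interval of 3341 bp had its summit 209 bp past the start (180 fragments, fold 24.6, 21.2 to 28.5), and a neighbour of 1038 bp lay 284 bp before it (fold 21.0). A single H3K4me3 interval of 4267 bp overlapped both, with 287 fragments and its summit 192 bp past the start (fold 53.7, 47.7 to 60.3). The H3K4me3 summit was 17 bp from the nearer H3K27ac summit. The other 4 H3K27ac peaks had folds of 3.64 to 3.95, with 3 of them upstream within 4.21 kb of the start and 1 past the far end of the gene. The other H3K4me3 peak had a fold of 4.38 and lay 4.24 kb past the start, so the rest of the gene body held no peak. The marks covered 12.3% and 10.7% of the window.

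The super-enhancer assigned to TFRC began 14.1 kb upstream of the start and spanned 48.5 kb (196096169 to 196144653), away from the gene and from every protein-coding record. It had rank 292 in the authors' table, and the H3K27ac signal over it was 7.87-fold the input signal, rank 283. It held 30 H3K27ac peaks over 56.3% of its length, the strongest 36.2 kb upstream of TFRC (fold 24.3, 19.7 to 29.6), with an interval that overlaps that of the TFRC promoter peak. H3K4me3 was low in it, with 5 peaks over 7.28% of the length and a strongest fold of 14.1, 39.0 kb upstream. The start of the non-coding gene LINC00885 lies inside it. RHEX and TFRC were the only 2 of the 8 with a super-enhancer assigned or overlapping, where 4.01% of protein-coding genes had one. For the other genes the nearest lay 132 kb away at SLC4A1 (assigned to HDAC5), and 1461 kb at KLF1, 2695 kb at ANK1, 2964 kb at EPOR, 3095 kb at EPB42 and 5831 kb at ALAS2.

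**Figure D2:**
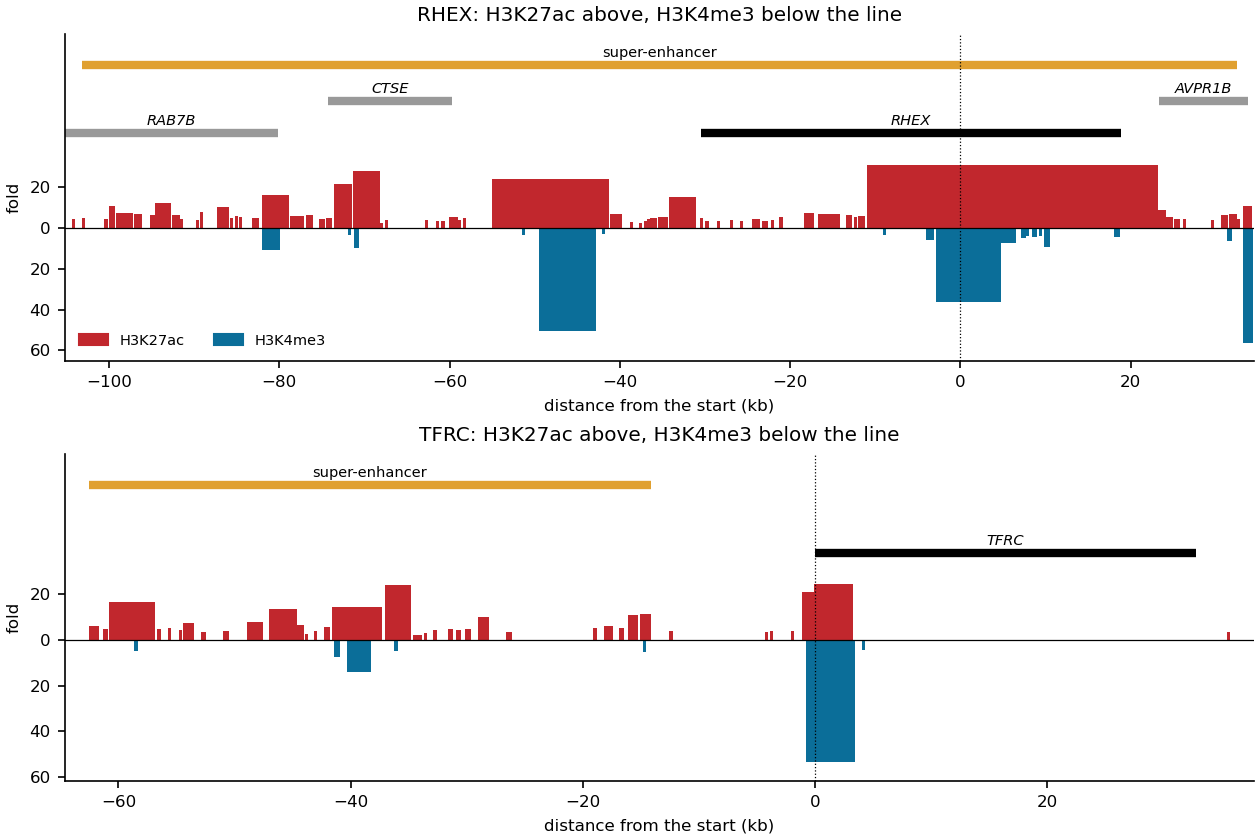
Peaks around RHEX and TFRC against distance from the start in kb, along the direction of the gene. Bars span each peak (narrow ones are widened to be visible) and their height is the fold at the summit, H3K27ac up and H3K4me3 down. Black and grey lines are gene records and the ochre line the assigned super-enhancer, which covers RHEX whole and begins 14.1 kb upstream of TFRC.

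EPOR (gene ID 2057, chromosome 19, 11377207 to 11384314) had lower folds of both marks at its start than at an interval inside the gene and at the start of the neighbouring gene SWSAP1. At the start the H3K27ac peak had 17 fragments and a fold of 4.74 (2.87 to 7.43), with its summit 194 bp past the start, and the H3K4me3 peak 26 fragments and a fold of 9.24 (6.15 to 13.4), 135 bp past it. Inside the gene an H3K27ac interval of 2416 bp (11380034 to 11382449) had a fold of 17.4 (14.3 to 20.9) and an H3K4me3 interval of 2171 bp a fold of 48.4 (41.9 to 55.6). Their summits lay 3422 and 3409 bp past the start, 13 bp apart, and no other gene record covers them. The strongest H3K27ac peak of the window (fold 33.4, 28.8 to 38.6) and an H3K4me3 peak of fold 45.2 (39.0 to 52.2) lay beyond the far end of EPOR. Their summits were 5 bp apart and 158 and 153 bp from the start of SWSAP1, a DNA repair gene. The marks covered 51.0% and 36.0% of this short window, which includes SWSAP1, more than in 95.2% and 93.2% of 4998 genes of like length.

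KLF1 (gene ID 10661, chromosome 19, 12884422 to 12887201) had no peak of either mark on its record. The window of this 2.78 kb gene reached the starts of both neighbours, and its highest folds lay there. On the side of DNASE2, which encodes a lysosomal nuclease, H3K27ac (fold 22.4) and H3K4me3 (fold 47.1) had summits 205 and 229 bp from that gene's start. On the side of GCDH, an enzyme gene of lysine breakdown, H3K4me3 reached 68.8 at 231 bp from its start, with H3K27ac folds of 9.75 and 8.04. What lay nearest to KLF1 itself was H3K27ac of fold 5.53 (3.48 to 8.39, 20 fragments) with its summit 590 bp before the start, and of fold 4.74 at 1737 bp. The nearest H3K4me3 was 3108 bp from the start. With 1 kb either side in place of 5 kb, KLF1 had no H3K4me3 peak.

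**Figure D3:**
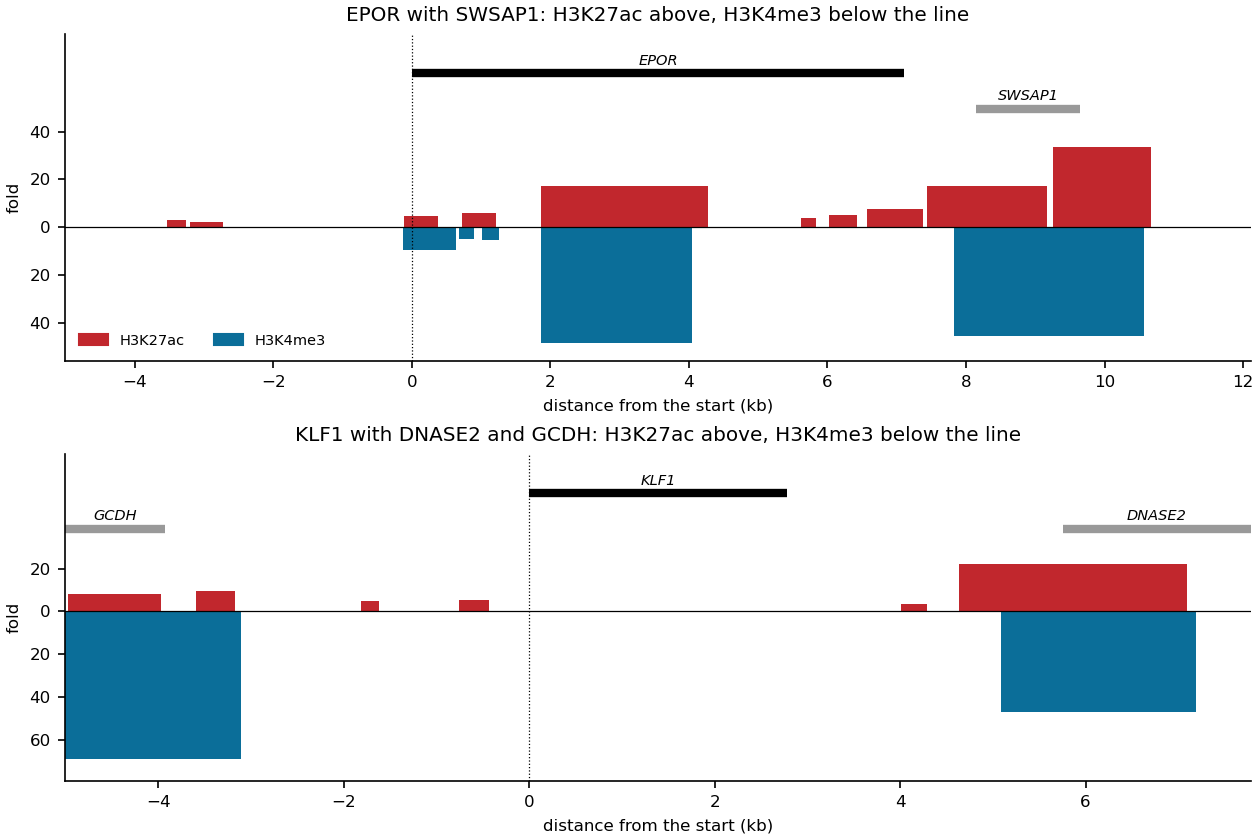
Peaks around EPOR and KLF1 against distance from the start in kb, drawn as fold at the summit with H3K27ac up and H3K4me3 down. At EPOR the tallest bars lie 3.41 kb inside the gene and at SWSAP1, with low bars at the start. At KLF1 the tall bars lie at DNASE2 and GCDH, and the gene itself is empty.

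ALAS2 (gene ID 212, chromosome X, 55009055 to 55030977) had the least signal. Its 1 H3K27ac peak, 407 bp wide with 17 fragments and a fold of 4.74 (2.87 to 7.43), lay 21.9 kb past the start, at the far end of the gene where its record meets that of the DNA repair gene APEX2. The nearest edge of an H3K27ac peak was 21610 bp from the start and that of an H3K4me3 peak 28998 bp. Among 6985 genes of 0.5 to 2 times its length 75.6% had both marks in the window. ALAS1, the form used in other tissues, had H3K27ac of fold 20.7 and H3K4me3 of fold 49.99 within 1 kb of its start.

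EPB42 (gene ID 2038, chromosome 15, 43197227 to 43225737) had 8 H3K27ac peaks with folds of 2.89 to 7.35 and no H3K4me3 peak. One covered the start used here, with a fold of 3.42 (1.89 to 5.78) on 12 fragments and its summit 88 bp before it. A further 5, with folds of 3.25 to 7.35, clustered 4125 to 6090 bp upstream, at the high end of the record, and the strongest (33 fragments, 5.13 to 10.2) had its summit 319 bp beyond that end. The nearest H3K4me3 was 16962 bp from the start, with a fold of 4.87. SLC4A1 (gene ID 6521, chromosome 17, 44248390 to 44268135) likewise had H3K27ac only, in 5 peaks with folds of 3.25 to 7.78. Of these 4 lay 709 to 2674 bp below the low end of the record and 1, of fold 4.04, inside it, so that 18257 bp up to the high end held none. The strongest (35 fragments, 5.49 to 10.7) was 661 bp wide. The nearest H3K4me3 was 25823 bp from the low end and 39811 bp from the high end.

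ANK1 (gene ID 286, chromosome 8, 41653225 to 41896741) had H3K4me3 at an end of its record, which EPB42 and SLC4A1 had not. That peak of 1784 bp (41896104 to 41897887) had 246 fragments and a fold of 46.1 (40.5 to 52.2), with its summit 332 bp beyond the high end. No H3K27ac peak overlapped it, and the nearest to that end was 60410 bp away. The strongest pair of marks lay inside the gene (41827678 to 41829328 for H3K27ac), with folds of 23.5 (19.98 to 27.4) and 37.2 (32.1 to 43.0) and summits 8 bp apart. Other internal pairs had folds of 8.85 and 15.6 and of 6.36 and 12.2, with summits 14 and 6 bp apart. Over the gene there were 10 peaks of each mark, with H3K27ac folds of 2.87 to 23.5 and H3K4me3 folds of 2.84 to 46.1, covering 2.72% and 3.81% of the 243.5 kb gene and its flanks. MIR486-1, an erythroid microRNA gene inside ANK1, was 55.7 kb from the nearest H3K27ac and 41.0 kb from the nearest H3K4me3 peak. Chromosome 8 is kept in duplicate in this otherwise largely haploid line. The expected background was 7.42 fragments at the median H3K27ac peak of ANK1, against 3.67 at those of the other 7 genes, and 4.17 against 3.24 for H3K4me3. A fold is relative to that background, and its part in these values was not tested.

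**Figure D4:**
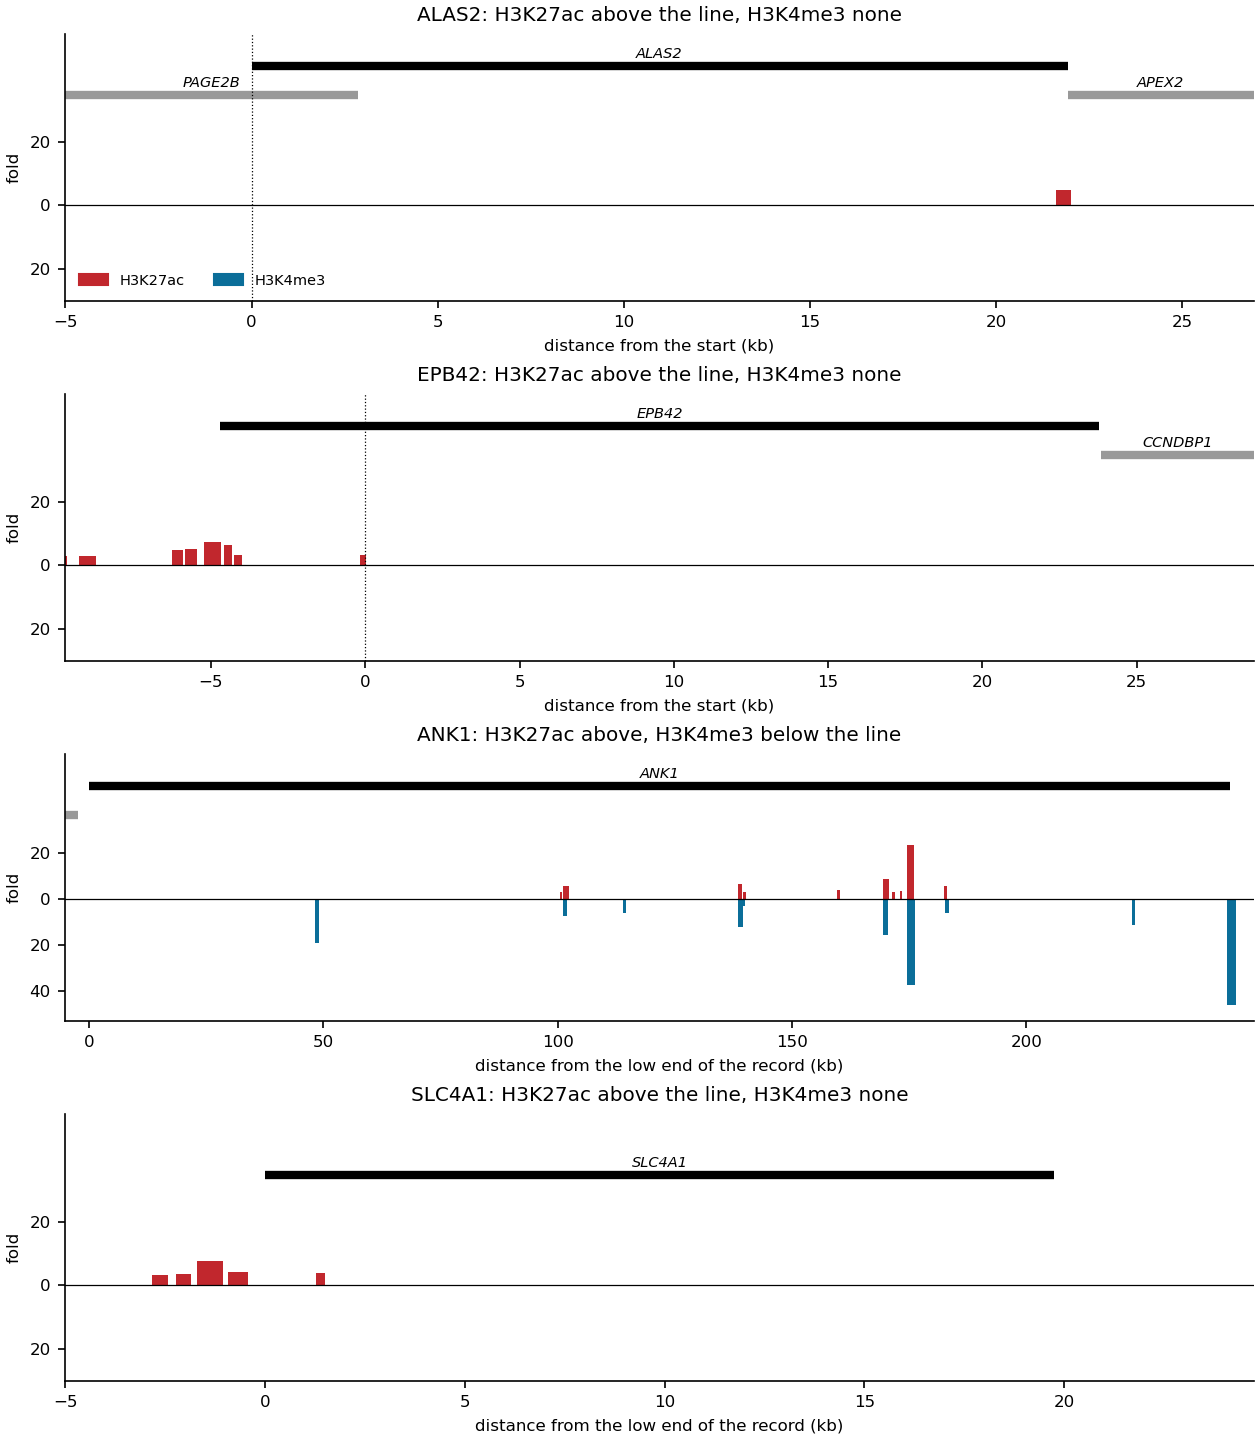
Peaks around ALAS2 and EPB42 against distance from the start, and around ANK1 and SLC4A1 against distance from the low end of the gene record, in kb. Bars are the fold at the summit, H3K27ac up and H3K4me3 down. ALAS2 has 1 low bar at its far end, EPB42 and SLC4A1 have low H3K27ac bars only, and ANK1 has H3K4me3 of fold 46.1 at its high end with no H3K27ac there.

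Counted in the window, the other genes of the same pathways mostly carried both marks, where 70.1% of protein-coding genes did. A peak in the window can belong to a neighbouring gene, as at KLF1. The pathway lists were written with earlier results of these data known, so the counts below are descriptions and were not tested. All 19 genes of erythropoietin signalling and growth had both, with a median strongest fold of 36.8 for H3K27ac and 61.9 for H3K4me3, against 17.7 and 54.1 over all protein-coding genes when a gene without the mark counts as 0. The highest H3K27ac folds were at CISH (54.0), a feedback inhibitor of STAT5, BCL2L1 (46.5), a survival gene, and SOCS2 (45.6), another feedback inhibitor. Super-enhancers were assigned to 7 of the 19, namely CISH, PIM1, BCL2L1, LYN, GAB2, GRB2 and SH2B3, where 2.25% of protein-coding genes had one, and the authors chose these targets partly on expression. All 28 genes of haem synthesis and iron handling also had both marks, with median folds of 23.2 and 65.5. Within 1 kb of the start, where known, both marks were present at 16 of 16 erythropoietin genes and 20 of 21 haem and iron genes. Of protein-coding starts 61.4% had both. H3K27ac folds were high at TMEM14C (41.5), which encodes a mitochondrial carrier, and at the ferritin gene FTL (36.3), and CPOX, which encodes an enzyme of haem synthesis, was a super-enhancer target.

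The list of 25 red cell membrane genes also holds carbonic anhydrase genes. In it 19 genes (76%) had both marks in the window, near the 70.1% of all protein-coding genes. A further 1 had H3K27ac only and 5 had neither. The median folds were 16.9 and 60.7, against 17.7 and 54.1 over all protein-coding genes. Both marks lay within 1 kb of 12 of 19 known starts, where 61.4% of protein-coding starts had both. The highest H3K27ac folds were at the ion channel gene PIEZO1 (56.1, a super-enhancer target), EPB41 (32.4), which encodes protein 4.1, and the adducin gene ADD1 (30.7). Genes with neither mark included AQP1, CA1 and KEL, which encode a water channel, a carbonic anhydrase and the Kell antigen. Of 19 erythroid transcription factor genes and targets 15 had both in the window, with median folds of 28.3 and 72.2. They were led for H3K27ac by ZBTB7A (54.8), NFE2 (42.6) and KLF13 (41.6). Both marks lay within 1 kb of 9 of 11 known starts in this list. TAL1, LMO2, NFE2, KLF13 and BCL11A were super-enhancer targets. AHSP, which encodes the alpha-globin chaperone, and the globin genes HBB, HBG1 and HBG2 had neither mark, and HBG1 and HBG2 are near-identical copies whose reads can be shared.

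The lists thus held marked and unmarked erythroid genes. HBB and AHSP had no peak, RHAG had H3K27ac only (fold 4.74) and GATA1 had both marks at low folds (6.32 and 6.16), whereas TAL1 (28.3 and 63.7) and NFE2 (42.6 and 72.1) had both at higher folds. These 6 were chosen after their values were seen, and the folds are those of the window. Within 1 kb of the start RHAG and GATA1 had no peak of either mark, whereas TAL1 had 28.3 and 63.7 there. Both marks were present in the window of 13 of 14 myeloid, 8 of 12 megakaryocyte and 10 of 12 lymphocyte markers, where 70.1% of protein-coding genes had both. On the same count of unmarked genes as 0, the median strongest folds of H3K27ac and H3K4me3 were 19.8 and 13.7 for myeloid, 11.7 and 17.6 for megakaryocyte, and 17.6 and 35.7 for lymphocyte markers, against 17.7 and 54.1 over all protein-coding genes. Within 1 kb of the start, where known, both marks were present at 4 of 9 myeloid, 2 of 7 megakaryocyte and 4 of 6 lymphocyte markers, where 61.4% of protein-coding starts had both.

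**Figure D5:**
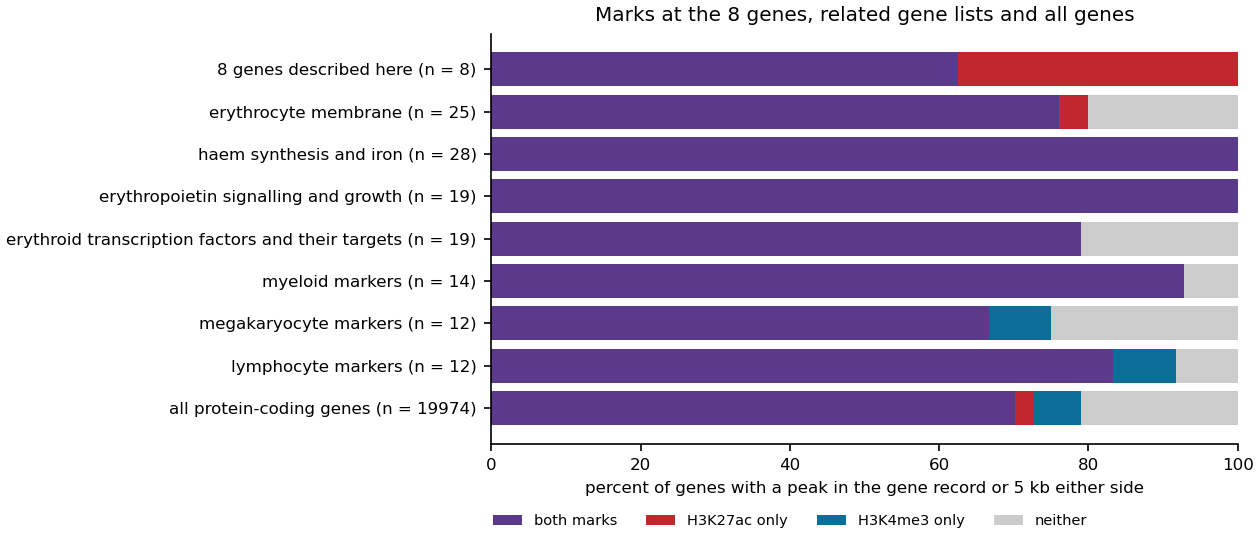
Percent of genes with both marks, H3K27ac only, H3K4me3 only or neither in the gene record or 5 kb either side, for the 8 genes, the 7 lists and all 19974 protein-coding genes. The haem and erythropoietin lists are filled by genes with both marks, and 3 of the 8 genes stand as H3K27ac only.

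Over the strongest fold and the covered percent of each mark, ranked among all protein-coding genes, the gene of 0.5 to 2 times the length most like EPB42 was SLC4A1, among 7079 candidates. Its strongest H3K27ac fold was 7.78, against 7.35 at EPB42, it covered 7.20%, against 6.73%, and neither had H3K4me3. The next gene was almost as near to EPB42, at a distance of 1.62 over the 4 ranks, against 1.61 for SLC4A1. Which of them is nearest is thus not resolved. By the same 4 measures in these 2 libraries the nearest to SLC4A1 was UGT2A3, to ALAS2 KNG1, to RHEX GPR174, to EPOR ANXA2R, to TFRC NASP, to KLF1 RELL2 and to ANK1 EXTL3. The measures are of the window, so at KLF1 and EPOR they include the peaks of the neighbouring genes. For SLC4A1 the next gene was again close, at 1.61 against 1.51 for UGT2A3. The distance to the nearest gene ran from 0.225 at ALAS2 to 5.16 at RHEX, so the matches are not equally near. GPR174 had H3K27ac over 72.6% of its window with a strongest fold of 28.3, against 82.4% and 30.4 at RHEX. KNG1 had an H3K27ac fold of 4.76 and no H3K4me3, as ALAS2 had with 4.74.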

How the data were processed

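ChIP-seq of H3K27ac and H3K4me3 in KBM7 cells gave the authors' 2 deposited peak lists and their table of super-enhancers. The build hg38 and the tools Bowtie2 2.3.4 and bedtools 2.20.1 are named in the submitters' processing notes. Peak caller, ranking tool, signal scaling and total reads: not given in the sources used here. In the deposited lists the authors give a fold (ratio at the summit), a −log10 p, a −log10 q and a score, 10 times the −log10 q without its decimals (100% of peaks). The super-enhancer table gives the authors' H3K27ac and input signal per region, a difference score and a target chosen by them on nearness and expression, per the file headers and name.

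Fragments at each summit were solved from fold = (fragments + 1)/(expected + 1) and the Poisson p, which fitted 100% of rows within 0.01 on the −log10 scale. The median was 21 fragments (interquartile range 16 to 42) in 96659 H3K27ac peaks and 39 (18 to 221) in 36951 H3K4me3 peaks. Intervals are 95% and cover counting error only. Gene records and starts (15812 of 19974 genes) came from RefSeq GRCh38.p14, the build of the files. A start is 1 per gene, so other promoters of a gene are not separated. The scan and the fragment fit were tested on simulated data with Python 3.11.15, scipy 1.17.1 and pandas 2.3.3. The members, the 7 lists and their 129 genes were chosen with earlier results of these data known, and the CpG counts were added after the values were seen. In the text all 8 members are named, and of each pathway list the 3 genes of highest H3K27ac fold, each super-enhancer target and up to 5 genes with neither mark, except a few genes that are not reported here; the remaining genes named are neighbours, marker genes of the cell check, ALAS1 as the sister of ALAS2, and the gene nearest to each member in pattern. Alternatives changed the window, the peak threshold, the overlap and the genes used as background.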

Additional observations from a re-analysis of the deposited data

How the results depend on the processing

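No paired analysis was possible because each mark has 1 library and no result comes from a test. The counts of the 8 genes stayed within 1.5 times under most settings: H3K27ac at 6 to 8, H3K4me3 at 4 to 7 and both marks at 3 to 7. Both marks were present at 3 genes within 1 kb of the start (of either end for ANK1 and SLC4A1), 4 with the gene record alone and 7 with 10 kb either side, which adds ALAS2 and EPB42. A super-enhancer overlapping the gene record itself was found at 1 gene, RHEX. Within 1 kb of the start the strongest fold moved beyond its counting interval at 5 of 10 values, among them H3K4me3 at EPOR (9.24); with 10 kb H3K27ac at ALAS2 became 36.6.

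The share of protein-coding genes moved with every choice except the overlap. For H3K27ac it was 71.1% at a −log10 q of at least 5, 69.7% in the top 50% of peaks, 68.6%, 70% and 75.2% with windows of 0, 1 and 10 kb, 61.7% within 1 kb of the start and 43.5% over all gene types. For H3K4me3 it was 75.7%, 71.4%, 72.3%, 73.6%, 78.9%, 66% and 42.9% in the same order. For both marks it was 68.9%, 65.9%, 65.9%, 67.3%, 72.8%, 59.5% and 38.4%. The shares within 1 kb of the start given here are over all 19974 genes, with either record end used where no start is known. They therefore differ from the 63.3%, 67.5% and 61.4% given above for the 15812 known starts. Among genes of 0.5 to 2 times the length of the member, both marks were at 80.3% for RHEX, 64.4% for EPOR, 78.5% for TFRC, 54.3% for KLF1, 75.6% for ALAS2, 77.6% for EPB42, 76.6% for ANK1 and 74.7% for SLC4A1. The construction of each setting (fewer peaks, narrower windows, other genes) sets these shares. The strongest peaks of the low set, and that at the EPB42 start, rest on 12 to 35 fragments, so their folds and order within the low set are not resolved at this depth.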
